A study of Homo sapiens with 8 samples.

Results

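The HOX genes are the homeobox genes of the 4 human HOX clusters, and their transcript levels were examined here in 4 prostate cancer cell lines. The members were the 38 genes whose symbol is HOX, a cluster letter (A to D) and a number, with 1 gene of the HOXB cluster not analysed here. Of these 38, 23 had a probe set annotated to that gene alone, out of 22395 genes with such a probe set, and each of the 23 had a single one. A further 5 were found only on probe sets shared with a neighbour: HOXC4, HOXC5 and HOXC6 on 1 probe set, HOXB6 together with HOXB3, and HOXD4 together with HOXD3. The other 10 were not analysed here. HOXA is therefore represented by 1 member, HOXB by 8, HOXC by 6 and HOXD by 8.

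The study depleted DNA-PK, a kinase of DNA end joining, in prostate cancer cells, and its title names Wnt signalling as the pathway of interest. VCaP, C4-2B, PC3 and DU145 cells, all established human lines, received siRNA against DNAPK or a non-targeting siRNA and were harvested 48 h later. Each line gave 1 Affymetrix whole-transcript array per siRNA, labelled from 400 ng of total RNA, so 8 arrays form 2 groups of 4: DNAPK siRNA and non-targeting siRNA. VCaP and C4-2B (a derivative of LNCaP) are known as androgen-responsive, PC3 and DU145 as androgen-independent, and each stands for itself only, since no line was cultured in replicate. Levels below are log2 signals after robust multi-array averaging (RMA), and a difference of 1 is 2-fold. Levels of different probe sets are not compared, because each probe set has its own affinity.

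HOX proteins are homeodomain transcription factors that assign position along the body axis. Within a cluster the genes lie in the order of their paralog numbers, and genes of low number are switched on earlier and further forward in the embryo than those of high number. They bind DNA together with TALE homeodomain cofactors of the PBX and MEIS families, Polycomb proteins keep silent clusters closed, Trithorax-group proteins keep active ones open, and retinoic acid induces the low-numbered end. Adult cells keep much of the HOX code of their place of origin. In the urogenital tract the posterior members are the ones known for patterning, and antisense and long non-coding RNAs (HOTAIR, HOTTIP, HOXA11-AS) and the miR-196 microRNAs are encoded inside the clusters.

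HOXA2 is the sole HOXA member measured on its own probe set, its levels differed several-fold between lines, and so did those of the cofactor MEIS2. The 250 bases before its RefSeq start (GRCh38.p14, chr7:27102684-27102933, minus strand, given 5′ to 3′ towards the start) are shown with motif matches in capitals.
HOXA2 upstream: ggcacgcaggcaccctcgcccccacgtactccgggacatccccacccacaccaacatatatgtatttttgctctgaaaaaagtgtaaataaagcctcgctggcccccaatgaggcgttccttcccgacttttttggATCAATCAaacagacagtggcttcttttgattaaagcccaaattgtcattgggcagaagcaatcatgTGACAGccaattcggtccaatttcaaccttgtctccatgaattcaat
The first run of capitals is a match on the opposite strand to the PBX-HOX motif TGATNNAT, beginning 114 bases before the start, and the second is the MEIS motif TGACAG, beginning 47 bases before it. Both strands were searched, and the matches do not overlap. Of 35116 RefSeq promoters cut to the same 250 bases, 6.47% hold TGATNNAT and 13% hold TGACAG. The retinoic acid receptor motif AGGTCA, present in 12.1% of promoters, has no match in this window. The promoter table held 9 of the 23 members, and among these TGATNNAT was also found for HOXB1 and HOXD11. A match describes letters, not a bound site.

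The microRNAs of the clusters are shown because a probe set inside HOXA, shared by HOXA10-AS and MIR196B, set the lines apart. Their mature forms share the seed, bases 2 to 8, given in capitals, and the miR-196 family is known to act on transcripts of several central HOX genes.
hsa-miR-196b-5p: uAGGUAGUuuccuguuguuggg
hsa-miR-196a-5p: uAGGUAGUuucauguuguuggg
The sequences come from RefSeq (GRCh38.p14). Written as miR-196a base, position from the 5′ end and miR-196b base, they differ by 1 substitution, A12C. MIR196B lies on chromosome 7 in HOXA, MIR196A1 on chromosome 17 in HOXB and MIR196A2 on chromosome 12 in HOXC. The array measured transcripts of these loci, not mature microRNA.

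The array medians lay between 2.94 and 2.99 over all 53617 probe sets. PRKDC, which encodes the catalytic subunit of DNA-PK, was left at 65.0% of the non-targeting signal in VCaP, 17.4% in C4-2B, 25.1% in PC3 and 47.2% in DU145. As checks on the lines, ERG averaged 8.61 in VCaP and 3.11 to 3.46 elsewhere, and VIM averaged 2.34 in VCaP and 4.12 in C4-2B against 7.52 in PC3 and 8.17 in DU145. KLK3 averaged 10.18 in C4-2B but 4.6 in VCaP, a line known to express it. Of 6 immune markers with a probe set only CD68 passed the filter described next. CD68 averaged 4.61 in VCaP, 5.02 in C4-2B, 7.23 in PC3 and 7.83 in DU145. The other markers (PTPRC, CD3E, LYZ, CD14 and HBB) read 1.3 to 3.09 on all arrays. The list's summed linear signal was 43.8 to 56.1 on the VCaP and C4-2B arrays against 155 to 267 on the PC3 and DU145 arrays. CD68 alone carried most of that gap. The part of this signal in the differences between these lines was not tested.

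A gene entered the tests when its mean over the 8 arrays exceeded 2.51, the 25th percentile of all genes. That kept 16796 genes and 19 of the 23 HOX members. The members below it were HOXB1 (mean 1.95), HOXC11 (2.05), HOXD1 (2.14) and HOXD9 (2.40), and the nearest above it were HOXB2 (2.64) and HOXD3 (2.65). By position, 4 of 6 anterior members (paralog groups 1 to 3) passed, as did all 6 central members with a probe set of their own (groups 4 to 8) and 9 of 11 posterior members (groups 9 to 13).

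**Figure D1:**
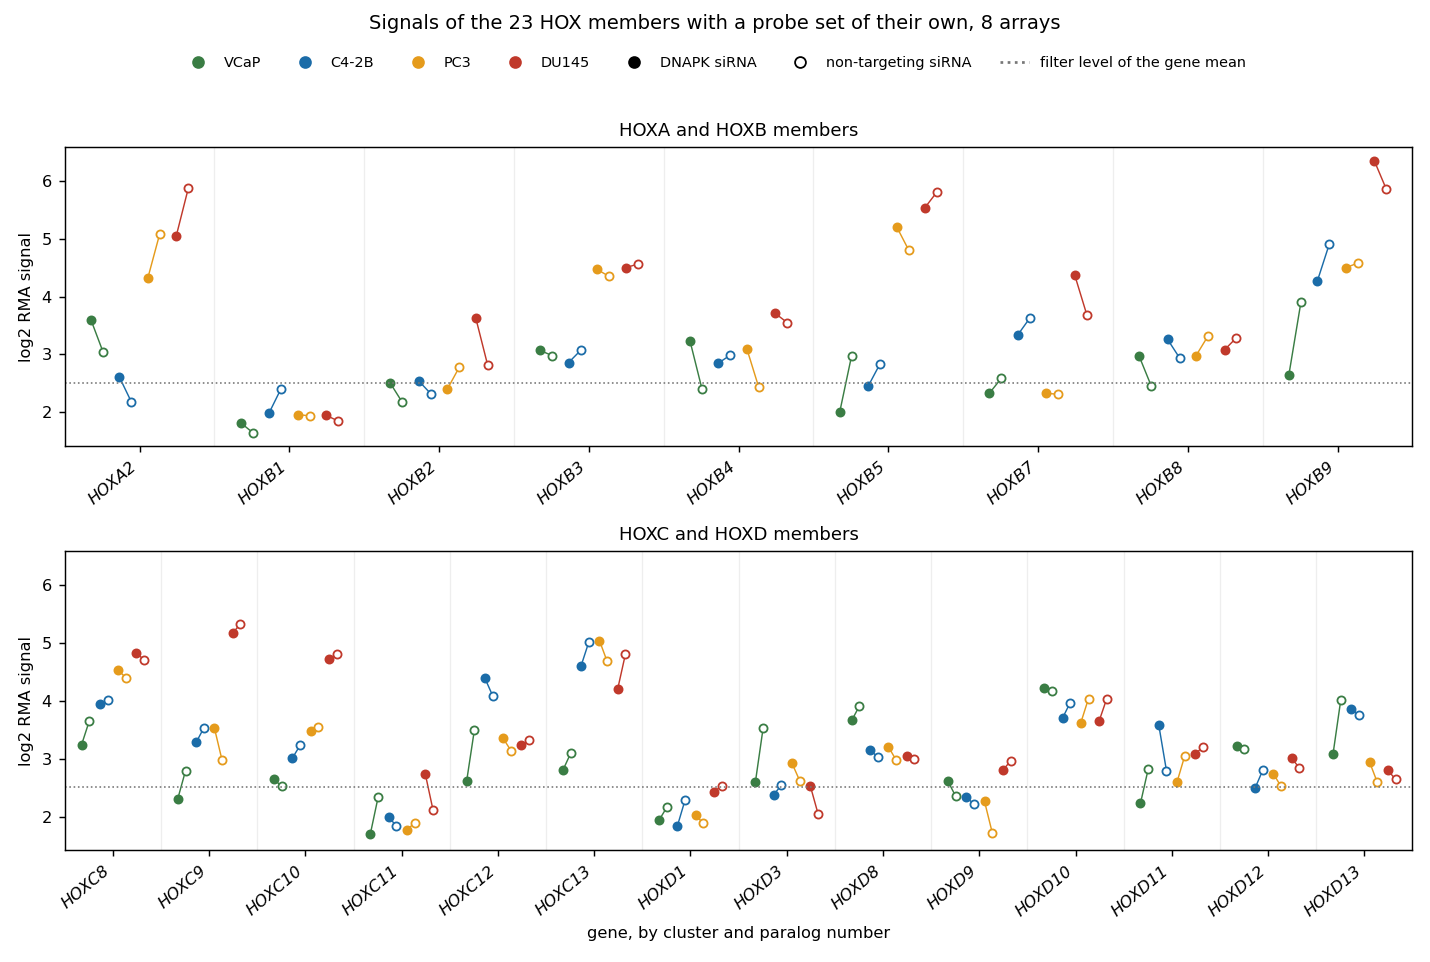
Log2 RMA signal (y axis) of the 23 HOX members on 8 arrays, by cluster and paralog number; colours are cell lines, filled points DNAPK siRNA, open points non-targeting siRNA, and the dotted line is the filter level of 2.51. The red DU145 points stand highest for most HOXB members and for HOXC8 to HOXC10, while HOXB1 lies below the dotted line on all 8 arrays.

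The HOXB members past the filter, with HOXA2 and HOXC8 to HOXC10, had their highest mean in DU145. DU145 had the highest line mean for 11 of the 19 members past the filter (57.9%), against 23.6% of all genes: HOXA2, all 7 HOXB members, HOXC8, HOXC9 and HOXC10. For 9 of them, all but HOXA2 and HOXB8, both DU145 arrays lay above the 6 other arrays (47.4%, against 13.1% of all genes). VCaP had the highest mean for 4 members (21.1%), all in HOXD (HOXD3, HOXD8, HOXD10 and HOXD12), a share below the 27.4% of all genes. For all but HOXD3 both VCaP arrays lay above the 6 others (15.8%, near the 15.4% of all genes). C4-2B was highest for HOXC12, HOXD11 and HOXD13 (15.8%, against 26% of all genes), with both arrays above the 6 others for HOXC12 (5.26%, against 13.6%). PC3 was highest for HOXC13 alone (5.26%, against 23% of all genes). HOXB2 passed the filter only through its level in DU145 and HOXD3 only through its level in VCaP. With the filter set on the 3 lines other than the highest, DU145 was highest for 10 of 17 members (23.5% of 16043 genes), with both arrays above the 6 others for 8 (12.9%), and VCaP for 3 (27.1%).

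The share of HOX members that differed between any of the lines was close to that of the array as a whole. The limma F test over lines called 13 of 19 members (68.4%) at an adjusted p of 0.05, against 62.6% of all genes. They were HOXA2, 5 of 7 HOXB members (HOXB3, HOXB4, HOXB5, HOXB7 and HOXB9), all 5 HOXC members tested and 2 of 6 HOXD members (HOXD8 and HOXD13). The 2 arrays of a line differ in siRNA and stand for that line, so these p-values measure the spread between arrays of one line and say nothing about other lines. In bulk RNA, fewer expressing cells and less RNA per cell cannot be told apart.

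Between pairs of lines, a member was called when its adjusted p was under 0.05 and its difference past 1. VCaP was lower than DU145 in 9 of 19 members (47.4%) and higher in none, against 22.9% of all genes called (10.3% higher, 12.5% lower). C4-2B differed from DU145 in 7 members (36.8%), against 19.2% of all genes (8.76% higher, 10.4% lower), with 6 lower and HOXD13 higher. Lower levels in PC3 than in DU145 were called in 4 members (21.1%), against 15.1% of all genes (7.92% higher, 7.16% lower). Against PC3, VCaP was lower in 6 members (31.6%), with 22.8% of all genes called (10.4% higher, 12.4% lower). C4-2B differed from PC3 in 5 members (26.3%), against 19.7% of all genes (8.69% higher, 11% lower), with HOXA2, HOXB3 and HOXB5 lower and HOXB7 and HOXD13 higher. Against C4-2B, VCaP was lower in 4 members (21.1%), with 17.5% of all genes called (8.7% higher, 8.76% lower), namely HOXB7, HOXB9, HOXC12 and HOXC13. By adjusted p alone that count was 7, with 34.7% of all genes. The count by both rules fell to 2 without the C4-2B or the VCaP DNAPK siRNA array and was 6 without the VCaP non-targeting array. Without the VCaP DNAPK siRNA array HOXB7, HOXB9 and HOXC12 lost the call, so the 2 called there include a member not named above. The count between C4-2B and PC3 fell to 3 without the PC3 non-targeting array.

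**Figure D2:**
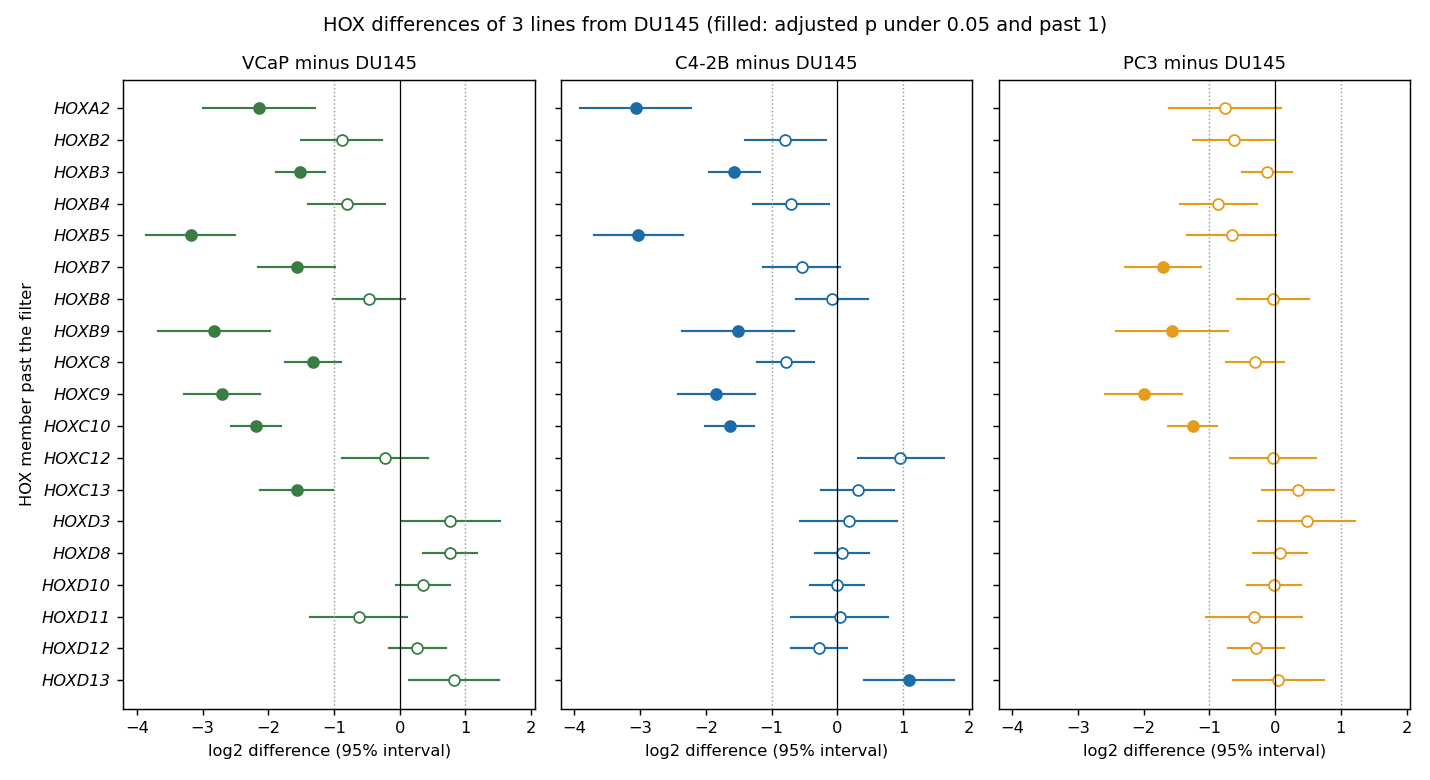
Log2 difference from DU145 (x axis, with limma 95% intervals) of the 19 HOX members past the filter in VCaP, C4-2B and PC3; filled points have an adjusted p under 0.05 and lie past 1. Most HOXA, HOXB and HOXC points lie left of 0, with HOXB5 at -3.18 in VCaP and -3.03 in C4-2B, and HOXD13 at 1.09 is the one filled point right of 0.

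HOXA2, which patterns the hindbrain and the second pharyngeal arch, was high in PC3 and DU145 and low in VCaP and C4-2B. With DNAPK siRNA HOXA2 read 3.60 in VCaP, 2.61 in C4-2B, 4.32 in PC3 and 5.05 in DU145, and with non-targeting siRNA 3.05 in VCaP, 2.18 in C4-2B, 5.09 in PC3 and 5.87 in DU145. All 4 arrays of PC3 and DU145 lay above all 4 of VCaP and C4-2B. The line means differed by -3.07 between C4-2B and DU145, by -2.31 between C4-2B and PC3 and by -2.14 between VCaP and DU145 (limma, adjusted p = 0.000538, 0.00211 and 0.00258). These calls held whichever array was left out, whereas that between VCaP and PC3 (-1.38, adjusted p = 0.0186) did not hold without the PC3 non-targeting array (-0.96, adjusted p = 0.148) or the VCaP non-targeting array (-0.90, adjusted p = 0.127). The difference between PC3 and DU145 was not called (-0.76, 95% interval -1.61 to 0.09).

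Among the HOXB genes, HOXB3 and HOXB5 were high in both PC3 and DU145. HOXB5, a gene of the vagal neural crest and the lung bud, showed the widest range of any member past the filter. With DNAPK siRNA HOXB5 read 2.00 in VCaP, 2.45 in C4-2B, 5.21 in PC3 and 5.54 in DU145, and with non-targeting siRNA 2.98 in VCaP, 2.84 in C4-2B, 4.81 in PC3 and 5.81 in DU145. Every array of PC3 and DU145 exceeded every array of VCaP and C4-2B. VCaP differed by -3.18 from DU145 and by -2.52 from PC3, and C4-2B by -3.03 from DU145 and by -2.37 from PC3 (limma, adjusted p = 0.000121, 0.000371, 0.000191 and 0.000615).

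HOXB3, a hindbrain gene, divided the lines the same way with tight arrays. With DNAPK siRNA HOXB3 read 3.07 in VCaP, 2.86 in C4-2B, 4.47 in PC3 and 4.5 in DU145, and with non-targeting siRNA 2.98 in VCaP, 3.07 in C4-2B, 4.35 in PC3 and 4.56 in DU145. VCaP differed from DU145 by -1.51 and from PC3 by -1.39, and C4-2B from DU145 by -1.57 and from PC3 by -1.44 (limma, adjusted p = 0.000281, 0.000408, 0.000287 and 0.000408). The calls for HOXB3 and HOXB5 held whichever array was left out. The difference between PC3 and DU145 was not called in HOXB3 (-0.12, 95% interval -0.50 to 0.26) or in HOXB5 (-0.66, -1.34 to 0.02), although the arrays of these lines did not overlap.

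The probe set shared by HOXB3 and HOXB6 had an even wider range. With DNAPK siRNA the HOXB3/HOXB6 signal was 2.29 in VCaP, 3.57 in C4-2B, 6.13 in PC3 and 6.70 in DU145, and with non-targeting siRNA 2.92 in VCaP, 3.73 in C4-2B, 6.17 in PC3 and 6.77 in DU145. In a fit over 33043 probe sets taken one by one, the difference from DU145 was -4.13 for VCaP and -3.09 for C4-2B (limma, adjusted p = 6.71e-05 and 0.000205, where 29.4% and 22.5% of probe sets pass an adjusted p of 0.05). The difference from PC3 was -3.55 for VCaP and -2.51 for C4-2B (limma, adjusted p = 0.000102 and 0.000389, where 29.7% and 24.2% pass). How the signal divides between the genes cannot be told apart. The HOXB3 locus also overlaps HOXB4 in RefSeq.

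HOXB7 and HOXB9, of the trunk region, were both highest in DU145. With DNAPK siRNA HOXB7 read 2.33 in VCaP, 3.34 in C4-2B, 2.33 in PC3 and 4.37 in DU145, and with non-targeting siRNA 2.59 in VCaP, 3.63 in C4-2B, 2.31 in PC3 and 3.69 in DU145. HOXB7 thus stood near the filter level in both VCaP and PC3. The difference from DU145 was -1.57 for VCaP and -1.71 for PC3 (limma, adjusted p = 0.00185 and 0.00204), while that between C4-2B and DU145 was not called (-0.54, 95% interval -1.13 to 0.04). C4-2B exceeded PC3 by 1.16 and VCaP differed from C4-2B by -1.02 (limma, adjusted p = 0.00868 and 0.0162), and neither call held without the C4-2B non-targeting array (0.94 and -0.80, adjusted p = 0.0912 and 0.142). The difference between VCaP and C4-2B was also lost without the VCaP DNAPK siRNA array (-0.83, adjusted p = 0.0935), and that between C4-2B and PC3 missed the threshold without either PC3 array at an unmoved size (1.15 and 1.17, adjusted p = 0.0581 and 0.051).

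HOXB9, which shapes the thoracic skeleton, was high in DU145 and low in VCaP. With DNAPK siRNA HOXB9 read 2.65 in VCaP, 4.27 in C4-2B, 4.5 in PC3 and 6.35 in DU145, and with non-targeting siRNA 3.90 in VCaP, 4.91 in C4-2B, 4.58 in PC3 and 5.86 in DU145. Both DU145 arrays stood above the rest and both VCaP arrays below. The deficit of VCaP against DU145 was -2.83 (limma, adjusted p = 0.00067), a call that held whichever array was left out. The other 4 calls, -1.51 for C4-2B and -1.57 for PC3 against DU145, -1.27 for VCaP against PC3 and -1.32 for VCaP against C4-2B (limma, adjusted p = 0.0148, 0.0155, 0.0264 and 0.0267), lost their adjusted p without either array of C4-2B or of PC3, where they involved that line, and without the DNAPK siRNA array of VCaP or DU145, where they involved those (adjusted p up to 0.174). The differences did not all shrink. That between PC3 and DU145 was -1.76 without the PC3 DNAPK siRNA array. That between C4-2B and DU145 was -1.69 without the C4-2B non-targeting array, while that between VCaP and PC3 was -0.68 without the VCaP DNAPK siRNA array. With all arrays but each probe set fitted by itself, VCaP against C4-2B and against PC3 also missed the threshold (limma, adjusted p = 0.0561 and 0.0544).

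HOXB2, HOXB4 and HOXB8 differed by less than 1 between any pair of lines. HOXB2 ranged over the 8 arrays from 2.17 to 3.63, HOXB4 (a gene of blood stem cells) from 2.41 to 3.71 and HOXB8 from 2.46 to 3.32. HOXB4 passed the test between lines (limma F test, adjusted p = 0.0487), and HOXB2 and HOXB8 did not (0.0643 and 0.288). HOXB4 differed from DU145 by -0.81 in VCaP and by -0.87 in PC3 (limma, adjusted p = 0.0347 and 0.0343). HOXB2 differed between VCaP and DU145 by -0.88 (limma, adjusted p = 0.0307). Since HOXB2 passed the filter only through its level in DU145, that p-value gives no separate support for a high level there.

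Among the HOXC members past the filter, HOXC8, HOXC9 and HOXC10 were highest in DU145, and HOXC12 and HOXC13 were not. HOXC11, below the filter, averaged 2.43 in DU145 and 1.83 to 2.01 in the other lines. HOXC9 and HOXC10 specify thoracic and lumbar spinal levels. With DNAPK siRNA HOXC9 read 2.31 in VCaP, 3.28 in C4-2B, 3.53 in PC3 and 5.17 in DU145, and with non-targeting siRNA 2.79 in VCaP, 3.53 in C4-2B, 2.97 in PC3 and 5.33 in DU145. DU145 alone was above 5, the arrays of C4-2B and PC3 overlapped, and both VCaP arrays were lowest. All 3 lines were lower than DU145, with differences of -2.70 for VCaP, -1.84 for C4-2B and -2.0 for PC3 (limma, adjusted p = 0.000127, 0.00101 and 0.00096).

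HOXC10 was likewise highest in DU145 and lowest in VCaP, with closer arrays. With DNAPK siRNA HOXC10 read 2.64 in VCaP, 3.01 in C4-2B, 3.47 in PC3 and 4.72 in DU145, and with non-targeting siRNA 2.52 in VCaP, 3.23 in C4-2B, 3.55 in PC3 and 4.81 in DU145. No array of one line overlapped with those of another. The differences from DU145 were -2.18 in VCaP, -1.64 in C4-2B and -1.25 in PC3 (limma, adjusted p = 4.29e-05, 0.00021 and 0.00111). The DU145 calls of HOXC9 and HOXC10 held whichever array was left out.

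HOXC8, a gene of brachial and thoracic levels, varied less. With DNAPK siRNA HOXC8 read 3.24 in VCaP, 3.95 in C4-2B, 4.53 in PC3 and 4.82 in DU145, and with non-targeting siRNA 3.65 in VCaP, 4.01 in C4-2B, 4.40 in PC3 and 4.71 in DU145. The order VCaP, C4-2B, PC3, DU145 held on the arrays of either siRNA. VCaP differed by -1.32 from DU145 and by -1.02 from PC3 (limma, adjusted p = 0.00102 and 0.00356), and the second difference shrank to -0.78 without the VCaP DNAPK siRNA array and to -0.89 without the PC3 DNAPK siRNA array (adjusted p = 0.0174 and 0.0401), short of a size of 1.

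HOXC12 and HOXC13 lie at the posterior end, and HOXC13 is known for hair and nail formation. With DNAPK siRNA HOXC13 read 2.80 in VCaP, 4.61 in C4-2B, 5.04 in PC3 and 4.21 in DU145, and with non-targeting siRNA 3.09 in VCaP, 5.02 in C4-2B, 4.68 in PC3 and 4.81 in DU145. VCaP alone stood apart and was lowest, with a difference of -1.87 from C4-2B, -1.92 from PC3 and -1.57 from DU145 (limma, adjusted p = 0.000914, 0.00052 and 0.00147), whichever array was left out. No difference among the other lines was called (C4-2B minus PC3 -0.04, 95% interval -0.60 to 0.51).

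With DNAPK siRNA HOXC12 read 2.61 in VCaP, 4.39 in C4-2B, 3.35 in PC3 and 3.23 in DU145, and with non-targeting siRNA 3.49 in VCaP, 4.09 in C4-2B, 3.14 in PC3 and 3.32 in DU145. Both C4-2B arrays were above the 6 others. VCaP differed from C4-2B by -1.19 (limma, adjusted p = 0.0146), but by -0.91 without the C4-2B DNAPK siRNA array and by -0.67 without the VCaP DNAPK siRNA array (adjusted p = 0.134 and 0.0493), neither of which is a call. The probe set shared by HOXC4, HOXC5 and HOXC6, which overlap in RefSeq, ran the other way to HOXC8 and HOXC9, with means of 4.68 in VCaP, 4.51 in C4-2B, 4.05 in PC3 and 3.81 in DU145. VCaP exceeded DU145 there by 0.87 (limma, adjusted p = 0.0151).

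In HOXD the line means of the 6 members tested spanned between 0.37 (HOXD10) and 1.09 (HOXD13). HOXD13, the posterior end of the cluster, is known for its part in digits and in the urogenital tract. With DNAPK siRNA HOXD13 read 3.08 in VCaP, 3.85 in C4-2B, 2.94 in PC3 and 2.80 in DU145, and with non-targeting siRNA 4.01 in VCaP, 3.76 in C4-2B, 2.59 in PC3 and 2.64 in DU145. All 4 arrays of VCaP and C4-2B lay above all 4 of PC3 and DU145. C4-2B exceeded DU145 by 1.09 and PC3 by 1.04 (limma, adjusted p = 0.0242 and 0.0281), calls lost without the C4-2B DNAPK siRNA array (0.98 and 0.93, adjusted p = 0.154 and 0.168). They were lost as well without the C4-2B non-targeting array, without either DU145 array for the first and without the PC3 non-targeting array for the second. With all arrays but each probe set fitted by itself, both also missed the threshold (limma, adjusted p = 0.0542 and 0.0593).

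HOXD8 was higher in VCaP than in every other line, by less than 1. With DNAPK siRNA HOXD8 read 3.66 in VCaP, 3.15 in C4-2B, 3.21 in PC3 and 3.04 in DU145, and with non-targeting siRNA 3.91 in VCaP, 3.03 in C4-2B, 2.98 in PC3 and 3.0 in DU145. VCaP exceeded C4-2B by 0.70, PC3 by 0.70 and DU145 by 0.77 (limma, adjusted p = 0.018, 0.015 and 0.00991). HOXD10 of lumbar levels (3.62 to 4.23 over the arrays), HOXD12 (2.49 to 3.22), HOXD11 (2.23 to 3.58) and HOXD3 (2.05 to 3.53) did not pass the F test between lines, and neither did the 2 probe sets shared by HOXD3 and HOXD4. HOXD12 differed between VCaP and PC3 by 0.56 (limma, adjusted p = 0.0422).

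The non-coding RNA genes gave a view along HOXA, where HOXA2 is the sole coding gene measured. The transcripts of the posterior end, where HOXA11-AS and HOTTIP lie, were high in VCaP and PC3, while HOXA2 was high in PC3 and DU145. With DNAPK siRNA HOTTIP, an RNA known to recruit WDR5 to posterior HOXA genes, read 6.70 in VCaP, 2.81 in C4-2B, 4.86 in PC3 and 2.42 in DU145, and with non-targeting siRNA 6.22 in VCaP, 2.76 in C4-2B, 5.06 in PC3 and 3.20 in DU145. The arrays of VCaP and PC3 did not overlap with those of C4-2B and DU145. VCaP exceeded C4-2B by 3.68 and DU145 by 3.65, and PC3 exceeded DU145 by 2.15 (limma, adjusted p = 8.88e-05, 4.85e-05 and 0.00111).

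With DNAPK siRNA HOXA11-AS, antisense to HOXA11, read 6.35 in VCaP, 2.69 in C4-2B, 5.64 in PC3 and 3.15 in DU145, and with non-targeting siRNA 6.0 in VCaP, 2.59 in C4-2B, 5.84 in PC3 and 3.16 in DU145. VCaP exceeded C4-2B by 3.54 and DU145 by 3.02, and PC3 exceeded DU145 by 2.59 (limma, adjusted p = 1.8e-05, 1.56e-05 and 6.03e-05). Whether its probes also see HOXA11 itself was not tested. With DNAPK siRNA the HOXA10-AS/MIR196B signal was 5.95 in VCaP, 3.34 in C4-2B, 6.46 in PC3 and 4.83 in DU145, and with non-targeting siRNA 6.31 in VCaP, 3.64 in C4-2B, 6.57 in PC3 and 4.31 in DU145. By the fit over single probe sets, VCaP exceeded C4-2B by 2.64 (limma, adjusted p = 0.00108, where 23.6% of probe sets pass) and PC3 exceeded DU145 by 1.95 (adjusted p = 0.00372, where 18% pass).

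At the anterior end, HOXA-AS2, which overlaps HOXA3 in RefSeq, averaged 2.34 in VCaP, 2.45 in C4-2B, 2.84 in PC3 and 4.12 in DU145. Relative to DU145 the difference was -1.78 in VCaP, -1.68 in C4-2B and -1.28 in PC3 (limma, adjusted p = 0.000129, 0.000214 and 0.00111). HOXA-AS3, from the middle of the cluster, stayed between 1.98 and 2.52 on all arrays and was not tested. On these probe sets DU145 was high at the HOXA2 end, VCaP at the HOTTIP end, PC3 at HOXA2 and at the HOTTIP end, and C4-2B at neither.

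**Figure D3:**
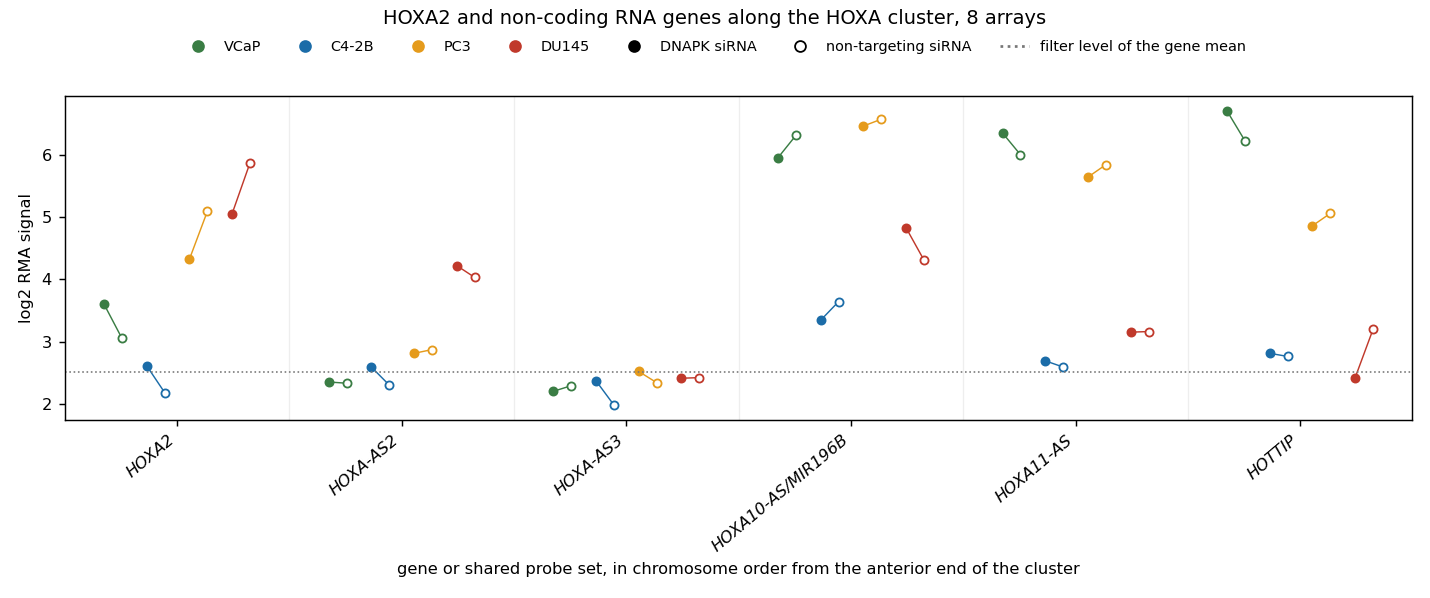
Log2 RMA signal (y axis) of HOXA2 and of non-coding RNA genes in their chromosome order from the anterior end of the cluster; colours are lines, filled points DNAPK siRNA, open points non-targeting siRNA, and the dotted line is the filter level. At HOTTIP the VCaP points are at 6.70 and 6.22, and at HOXA2 the DU145 points are at 5.05 and 5.87.

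Of the 24 non-coding genes listed for the 4 clusters, 16 had a probe set of their own, 10 passed the filter and 7 passed the F test between lines, which 62.6% of all genes passed. HOXC-AS1, beside HOXC9, was highest in DU145 as HOXC9 was, with means of 3.03 in VCaP, 3.32 in C4-2B, 2.63 in PC3 and 4.28 in DU145, and PC3 differed from DU145 by -1.65 (limma, adjusted p = 0.000866). HOXC-AS2 averaged 2.28 in VCaP, 2.94 in C4-2B, 3.13 in PC3 and 3.05 in DU145. HOTAIR, the HOXC transcript known for its association with Polycomb repressive complex, had a mean over arrays of 2.44, below the filter, with 1.71 to 3.26 on single arrays. MIR196A1 and MIR196A2 lay below the filter too, with means of 2.13 and 2.30.

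Setting VCaP and C4-2B together against PC3 and DU145, no HOX member passed a test that takes lines as replicates. HOXB5, HOXB3 and HOXA2 gave the smallest p-values on the lower side and HOXD13 on the higher side. The differences of line means were -2.22 for HOXA2, -1.48 for HOXB3, -2.77 for HOXB5 and 0.93 for HOXD13 (limma, unadjusted p = 0.00858, 0.00402, 0.000991 and 0.0248). Those 4 of 19 members (21.1%) had an unadjusted p under 0.05, against 9.53% of all genes. With adjustment over all genes limma called 0 of 16796 genes and 0 of 19 members (adjusted p = 0.284 for HOXA2, 0.204 for HOXB3, 0.118 for HOXB5 and 0.41 for HOXD13). The median difference was -0.324 over the 19 members and 0.0151 over all genes. By cluster, 0 of 7 HOXB, 1 of 5 HOXC and 5 of 6 HOXD members had a positive difference. This fit had 2 residual degrees of freedom among 4 lines.

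No HOX member moved in the same direction in all lines with DNAPK siRNA. The limma fit with the line as a block called 0 of 19 members and 0 of 16796 genes with adjustment, and 0 members, against 7.19% of all genes, had an unadjusted p under 0.05. PRKDC, the siRNA target, was not called in this fit either (-1.56, limma, unadjusted p = 0.000837, adjusted p = 0.688). The lack of calls therefore does not show a lack of response. In 0 members did the 4 lines share a sign, against 11.5% of all genes higher and 5.89% lower in every line. The median mean difference was -0.0722 over the members and 0.0274 over all genes, and 6 of 19 were above 0. The largest were 0.38 ± 0.45 for HOXB4, -0.37 ± 0.75 for HOXB9 and -0.31 ± 0.56 for HOXB5 (SD, n = 4 lines), with limma 95% intervals of -0.03 to 0.79, -0.97 to 0.23 and -0.79 to 0.17. The narrowest were those of HOXC10 (-0.33 to 0.20) and HOXB3 (-0.29 to 0.25).

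Within a line there is 1 array per siRNA and no test. VCaP had the one member past 1, HOXB9 at -1.25 (2.65 with DNAPK siRNA against 3.90 with non-targeting siRNA), where 3.7% of all genes were past 1. No member of the other lines was past 1, where C4-2B had 0.583%, PC3 1.07% and DU145 1.12% of all genes. The members ranged from -1.25 (HOXB9) to 0.83 (HOXB4) in VCaP, from -0.64 (HOXB9) to 0.79 (HOXD11) in C4-2B, from -0.77 (HOXA2) to 0.67 (HOXB4) in PC3 and from -0.82 (HOXA2) to 0.82 (HOXB2) in DU145. All genes were more widely spread in VCaP too, with an SD of 0.462 there and of 0.288 (C4-2B), 0.327 (PC3) and 0.334 (DU145) elsewhere, and VCaP kept the most PRKDC signal. The part of either in the members' values was not tested. In VCaP, HOXB5 had -0.98, HOXD3 -0.93, HOXD13 -0.92, HOXC12 -0.88 and HOXD11 -0.60, while HOXD10 and HOXD12 each had 0.06. Past 1.5-fold there were 7 members in VCaP, 2 in C4-2B, 2 in PC3 and 4 in DU145, against 17.1% of all genes in VCaP, 5.12% in C4-2B, 7.44% in PC3 and 7.67% in DU145.

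**Figure D4:**
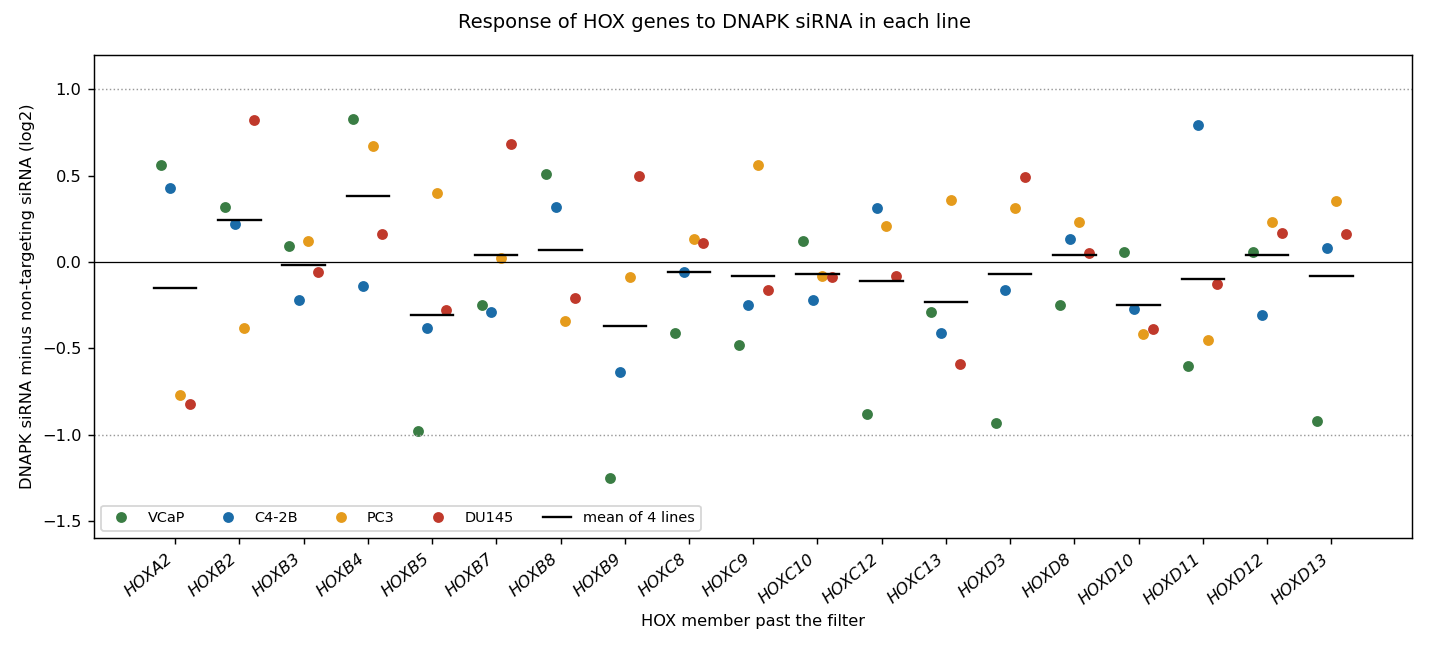
Difference between DNAPK siRNA and non-targeting siRNA (log2, y axis) of the 19 HOX members past the filter; coloured points are lines, black bars the mean of 4 lines and dotted lines mark 1 and -1. No member has its 4 points on one side of 0, and HOXB9 in VCaP at -1.25 is the one point beyond the dotted lines.

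The response was also compared between the pairs of lines. HOXA2 differed by 0.56 in VCaP and 0.43 in C4-2B, against -0.77 in PC3 and -0.82 in DU145, so that its response was 1.29 higher in the first pair (95% interval 0.72 to 1.86, limma unadjusted p = 0.00101). HOXB9 (-1.15), HOXD3 (-0.94) and HOXB8 (0.69) also had an unadjusted p under 0.05 (limma, 0.00924, 0.0204 and 0.027), which makes 4 of 19 members (21.1%), against 3.7% of all genes. That count includes HOXD3, which passed the filter only through its level in VCaP. The VCaP non-targeting array read 3.53 for HOXD3 and the other arrays 2.05 to 2.92. None passed with adjustment over all genes (limma, adjusted p = 0.991 for each), and 0 of 16796 genes did. Over the 4 lines HOXA2 spanned 2.61 to 5.05 on the DNAPK siRNA arrays, against 2.18 to 5.87 on the non-targeting arrays.

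Companion genes were read from lists of HOX cofactors and regulators. Of 9 TALE cofactors listed, 7 were tested and 4 passed the F test between lines, which 62.6% of all genes passed. MEIS2, which binds with PBX and HOX proteins, divided the lines as HOXA2, HOXB3 and HOXB5 did. With DNAPK siRNA MEIS2 read 2.03 in VCaP, 2.05 in C4-2B, 5.43 in PC3 and 5.57 in DU145, and with non-targeting siRNA 1.98 in VCaP, 1.90 in C4-2B, 5.04 in PC3 and 5.25 in DU145. MEIS2 differed from DU145 by -3.41 in VCaP and by -3.44 in C4-2B (limma, adjusted p = 6.42e-06 and 6.85e-06), and the difference between pairs of lines was -3.33 (adjusted p = 0.0647). PBX3 divided them otherwise, with means of 6.64 in VCaP, 4.08 in C4-2B, 4.85 in PC3 and 6.66 in DU145, and PBX4 averaged 3.26 in VCaP, 4.11 in C4-2B, 4.09 in PC3 and 3.79 in DU145.

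On the activating side, 16 of 18 Trithorax-group and associated genes tested passed the F test, against 62.6% of all genes. The histone H3K27 demethylase gene KDM6A was highest in C4-2B, with means of 7.34 in VCaP, 9.21 in C4-2B, 6.88 in PC3 and 6.24 in DU145, and C4-2B exceeded DU145 by 2.97 (limma, adjusted p = 1.79e-05). AFF1, of the super elongation complex, was highest in VCaP and exceeded DU145 there by 2.47 (adjusted p = 3.18e-05), and KDM6B averaged 6.46 in VCaP, 7.30 in C4-2B, 5.97 in PC3 and 6.04 in DU145. Of 24 Polycomb genes tested, 17 passed, a share near the 62.6% of all genes. PHF19, a PRC2 accessory factor, was lower in C4-2B than in DU145 (difference -2.66, adjusted p = 2.61e-05), and CBX2, a chromodomain subunit of PRC1, was higher in C4-2B by 1.56 and in VCaP by 1.53 than in DU145 (adjusted p = 0.000927 and 0.000857). CBX6 averaged 7.27 in VCaP, 7.20 in C4-2B, 6.46 in PC3 and 6.35 in DU145.

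Of 16 retinoic acid and CDX genes tested, 12 passed the F test, and of 21 genes beside the clusters 12 passed, against 62.6% of all genes. CRABP2, which carries retinoic acid to the nucleus, was lower in VCaP and C4-2B than in DU145, with differences of -2.46 for VCaP and -2.78 for C4-2B (limma, adjusted p = 0.000101 and 6.51e-05), and ALDH1A3, an enzyme of its synthesis, likewise, with -1.46 for VCaP and -1.53 for C4-2B (adjusted p = 0.00301 and 0.00293). ALDH1A1, another such enzyme, averaged 7.14 in VCaP and 1.68 to 1.72 in the other lines. PRAC1, next to the HOXB cluster and known from prostate and distal gut, was lowest in the line where the HOXB genes were highest, with means of 8.63 in VCaP, 6.19 in C4-2B, 7.18 in PC3 and 2.03 in DU145. DU145 was exceeded by VCaP by 6.59 and by C4-2B by 4.16 (limma, adjusted p = 3.26e-06 and 2.56e-05). Beside HOXA, SKAP2 and SNX10 were lower in VCaP than in DU145, with differences of -2.68 for SKAP2 and -1.65 for SNX10 (adjusted p = 8.35e-05 and 0.000366).

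None of the companion genes passed the test for DNAPK siRNA over the 4 lines. Among the genes past the filter, those with the largest mean differences of their lists were MEIS2 (0.23) and PBX4 (-0.17), WDR5 (0.34) and KDM6B (0.31), PCGF6 (0.28) and PHF1 (0.24), RARA (0.33) and CYP26A1 (0.28), HOXC-AS2 (0.19) and HOXD-AS2 (-0.19), and PRAC1 (-0.30) and CALCOCO1 (-0.28). Their adjusted p lay between 0.688 for WDR5 and 0.792 for PBX4 (limma).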

How the data were processed

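Per the labels' protocols, biotinylated cDNA from 400 ng of total RNA was hybridised to Affymetrix arrays. Each deposited value is a log2 signal of 1 probe set. RMA in oligo made it, per the submitters' processing notes, by correcting background, giving all arrays one distribution and summarising probes, so a change shared by most genes is removed. No source used here gives the genome build of the array. Scanner files were not used, so no detection call or batch was examined, and the number of arrays limits the precision.

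Of 53617 probe sets, 23871 carried 1 symbol, 1842 several and 27904 were unnamed here. Each of 22395 genes was read from its probe set of highest mean, and symbols of 22569 probe sets were updated through Entrez identifiers (RefSeq, GRCh38.p14). Fits used limma 3.58.1 under R 4.3.3 (lmFit, eBayes, 2-sided), with Benjamini-Hochberg adjustment over the 16796 genes past the filter and a threshold of 0.05. Terms were line and siRNA for the response and the contrasts between lines (3 residual degrees of freedom, 7.55 with the prior). The pairs of lines were compared on 4 line means or 4 per-line differences (2 residual degrees of freedom). The fits were also run on simulated data, and the outcome is not given here.

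The line pairs the arrays by design. Deviations from group means correlated at 0.864 to 0.918 for arrays of one line and at no more than 0.0135 otherwise, and the subtraction itself lowers the second value. The members and lists were chosen with earlier results of these data known. All members, PRKDC and the identity markers were to be named, and from each companion list the 3 genes with the largest difference between pairs of lines and the 2 with the largest mean response. HOXA11-AS, HOXC-AS1, HOTAIR, MIR196A1, MIR196A2, HOXA-AS3 and the probe set shared by HOXA10-AS and MIR196B were named after their values were seen. Correlations of neighbouring genes, which had been planned, are not given because the 8 arrays fall into 4 separate lines. Alternatives changed the filter, the scaling, the probe set per gene, the prior, the block, the size threshold and the arrays included.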

Additional observations from a re-analysis of the deposited data

Results flagged for a closer look

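In each of 69 groups of 4 arrays (23 members on the DNAPK siRNA arrays, on the non-targeting arrays and as 4 per-line differences), the highest and lowest value were compared with the others by Dixon's ratio at its 95% critical value. It singled out 3 values, and chance singles out about 5% of such groups. HOXB2 read 3.63 in DU145 on the DNAPK siRNA arrays, where the other lines had 2.40 to 2.54 (ratio 0.888). HOXD8 read 3.91 in VCaP on the non-targeting arrays, where the other lines had 2.98 to 3.03 (ratio 0.946). HOXD10 read 4.23 in VCaP on the DNAPK siRNA arrays, where the other lines had 3.62 to 3.70 (ratio 0.862).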

How the results depend on the processing

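Under the filter at the 50th percentile 6 members were left to test, and the counts of members called were then 5 between any lines (78.4% of the 11198 genes left), 5 in VCaP minus DU145 (26.8%), 3 in C4-2B minus DU145 (22.4%), 1 in PC3 minus DU145 (17.1%), 2 in C4-2B minus PC3 (23.1%) and 2 in VCaP minus C4-2B (20.7%), against 13, 9, 7, 4, 5 and 4 above. In VCaP minus PC3 (26.5%) HOXA2, HOXB5, HOXB9, HOXC8 and HOXC13 kept the call, and HOXB3, called above, fell below this filter. By adjusted p alone, VCaP minus C4-2B gave 7 (34.7% of all genes). Leaving out single arrays gave 2 to 6 in VCaP minus C4-2B and 3 to 5 in C4-2B minus PC3. With a size of 1.5-fold in place of 2, 7 members in VCaP (17.1% of all genes), 2 in C4-2B (5.12%), 2 in PC3 (7.44%) and 4 in DU145 (7.67%) differed between the siRNAs. Of 543 values of called pairwise differences recomputed under the alternatives, 509 stayed called, 34 lost the call and 0 changed sign. The fit with no replicate block (cell line left out) called 0 members for DNAPK siRNA, as did every alternative for the response, its difference between pairs of lines and the levels of the pairs, with adjusted p of members from 0.562, 0.307 and 0.0759 up to 1. Under the filter at the 50th percentile the levels of the pairs differed in 60 of all genes (0.536%), none of them a member. Fitting each probe set by itself and the filter on the lines other than the highest were chosen after seeing the data. Signals near the filter level carry little information, and with 2 arrays per line small differences cannot be resolved.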
